A study of Mus musculus with 12 samples.

Results

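Iron regulation in the liver was described through 10 genes, Hamp, Hamp2, Tfrc, Tfr2, Trf, Fth1, Ftl1, Slc40a1, Bmp6 and Smad7. They were taken by symbol from a table of 25069 genes measured by RNA sequencing in mouse liver, and all 10 were among the 14473 genes with a mean normalized count of at least 10 that were tested. Livers came from 12 female mice with 1 library per mouse, and every mouse was itself wild type at Khdc3, a gene active in egg cells. In WTMM mice (n = 4) both grandmothers were Khdc3-null, in WTPP mice (n = 4) both grandfathers were, and WT mice (n = 4) had only wild-type ancestors. Ages, litters and sequencing batches are not given in the labels, so p-values measure only the spread between these libraries. Library numbers of WT lie apart from those of both lineages, and if a batch followed them, batch and ancestry cannot be told apart.

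Libraries held 25070718 to 35843972 reads assigned to genes, and each of the 10 genes had at least 137 reads in every library. The samples are labelled as hepatocytes of liver, and their levels also held transcripts of other cells. Kupffer cell and macrophage markers, 11 genes, summed to 13709 to 18171 normalized counts in WTMM livers, 14448 to 18688 in WTPP livers and 21126 to 45962 in WT livers, and were lower in 10 of 11 genes for WTMM and in 11 of 11 for WTPP against WT. Erythroid markers, 7 genes, summed to 3147 to 8329 in WTMM, 815 to 17101 in WTPP and 9877 to 24315 in WT, with 1 of 6 tested genes called lower in WTMM, against 0 in WTPP (4 at an unadjusted p under 0.05 by limma, and 1 called with voom weights). Acute-phase genes were called lower in 5 of 13 for WTMM and 6 of 13 for WTPP, where 5.94% and 5.53% of all tested genes were called lower. The part of these shifts in the results was not tested.

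The liver sets body iron through hepcidin, the peptide hormone encoded by Hamp, which binds the iron exporter ferroportin (Slc40a1) and has it degraded. Hepatocytes raise Hamp when sinusoidal endothelial cells send BMP6, which signals through SMAD proteins, and when inflammatory cytokines act through STAT3, while SMAD7 holds the SMAD signal back. Inside cells, iron regulatory proteins bind stem-loops called iron-responsive elements, which block ferritin and ferroportin translation and stabilise the transferrin receptor transcript when iron is scarce.

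Livers of both lineages had less Tfrc, the receptor that takes up transferrin-bound iron, and less Trf, which encodes the plasma iron carrier transferrin, than WT livers, and had more Smad7. Hamp, Tfr2, Slc40a1, Bmp6 and both ferritin genes did not pass the test in any comparison. Hamp2 was lower in WTMM than in WTPP livers, with overlapping libraries, and neither lineage passed against WT. That call between lineages was lost in 13 of 25 alternative analyses. In WTMM against WT, 1 of the 10 genes was called higher and 2 lower, where 10.4% of all tested genes were called, 4.44% higher and 5.94% lower. In WTPP against WT, 1 was called higher and 2 lower, beside a background of 10.2%, 4.68% higher and 5.53% lower. In WTMM against WTPP, 1 was called lower and 0 higher, beside 4.17%: 2.29% higher and 1.88% lower. The median log2 difference of the 10 genes was -0.11, -0.05 and -0.05 in these 3 comparisons, and over all tested genes it was 0.00, -0.01 and 0.00. Calls are limma's moderated test on log2(normalized count + 1) with a Benjamini-Hochberg adjusted p at or under 0.05, and every adjusted p and standard error below comes from it. The 2 comparisons with WT share the WT libraries, so a difference between lineages is taken only from their direct comparison.

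**Figure D1:**
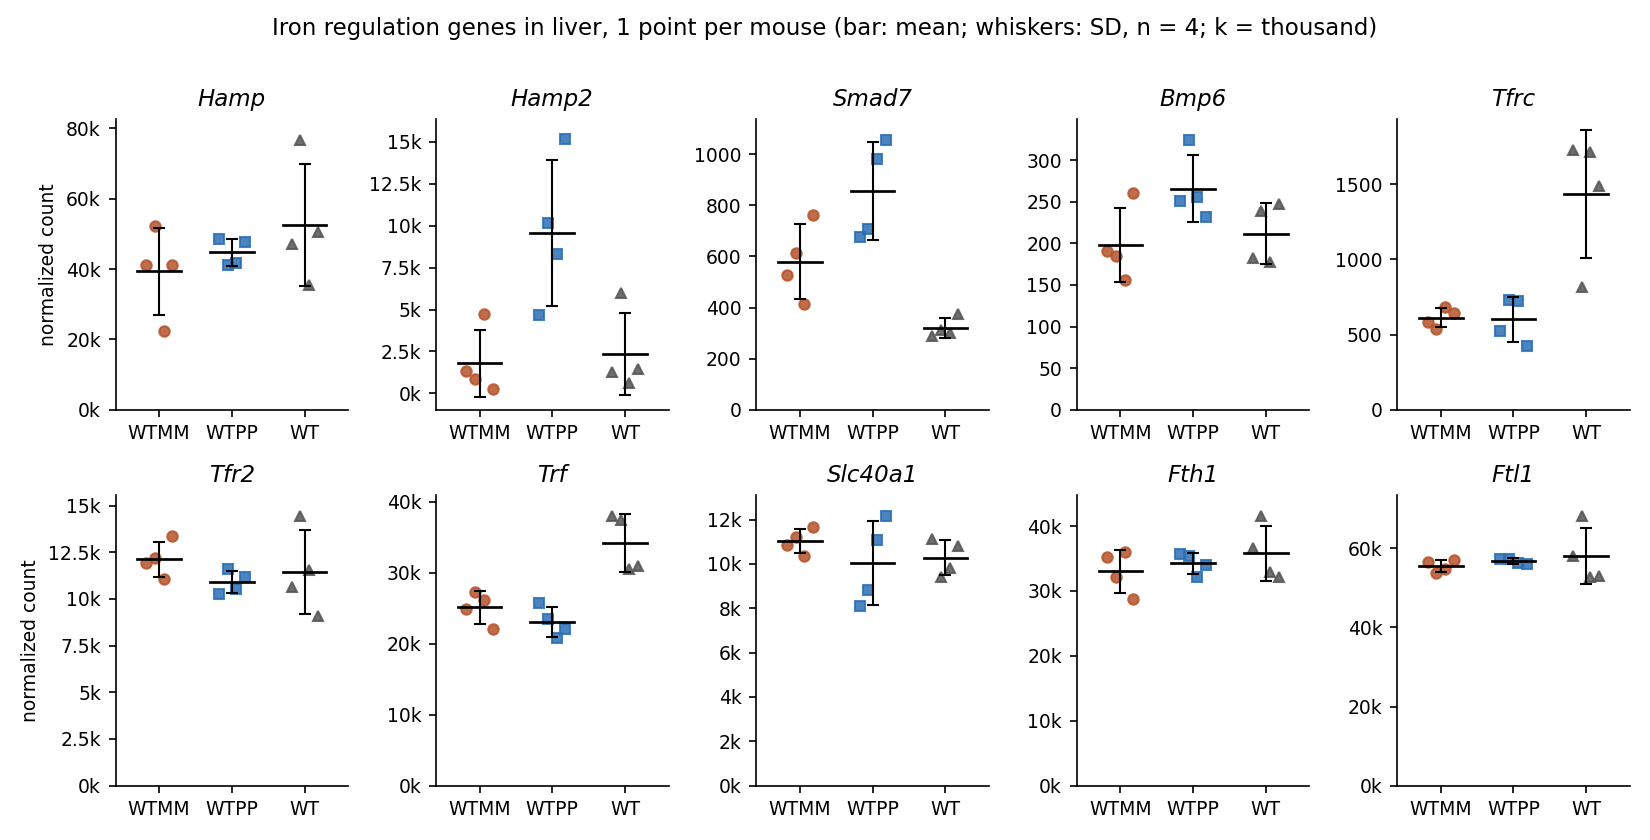
Normalized counts (y axis, linear, each gene on its own scale) of the 10 genes in WTMM, WTPP and WT livers (x axis). Each point is 1 mouse, horizontal bars are means and whiskers are SD (n = 4); the lower whiskers of Hamp2 in WTMM and WT pass below 0. The WT points of Tfrc and Trf lie above all points of both lineages and those of Smad7 lie below them, while the other 7 genes overlap.

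**Figure D2:**
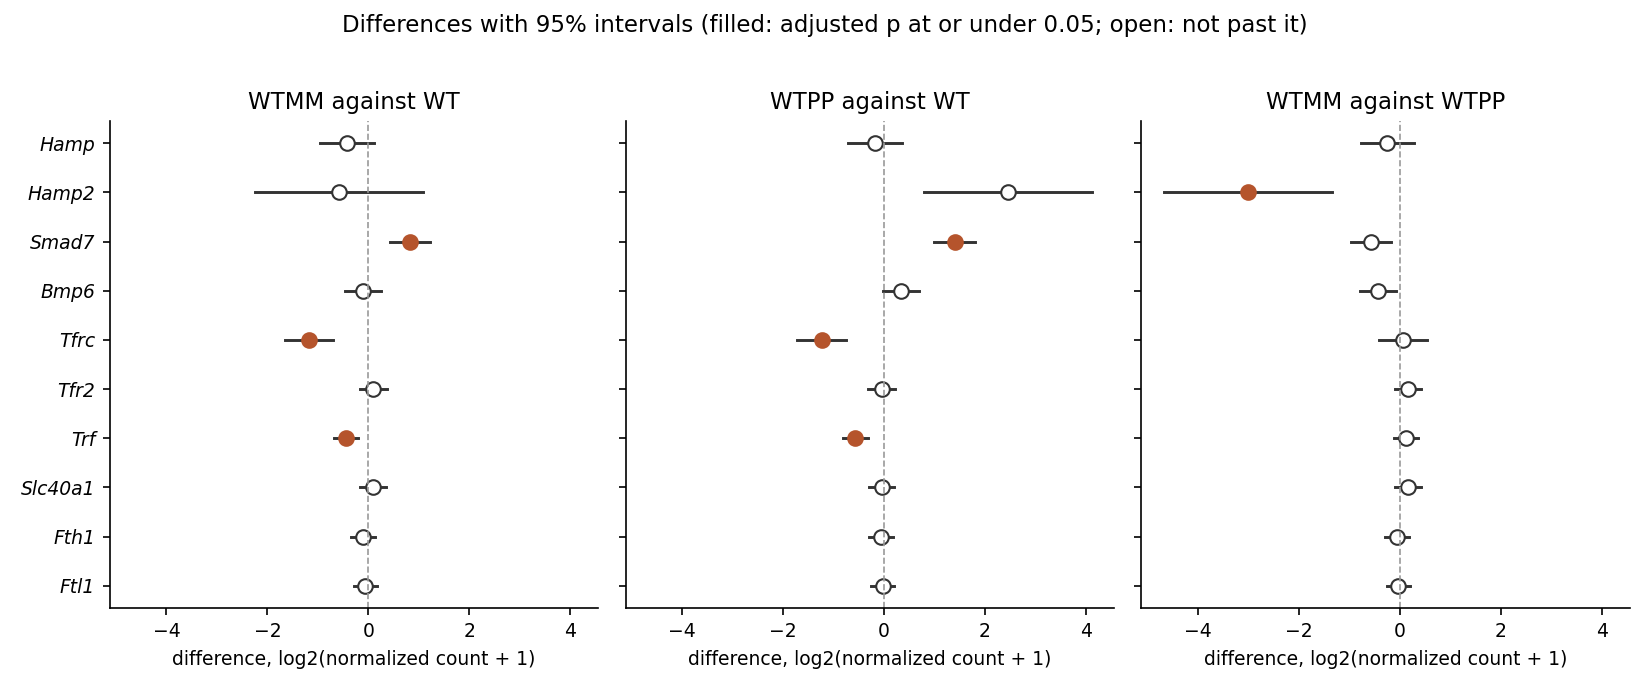
Log2 differences (x axis, log2(normalized count + 1)) of the 10 genes (y axis) in each lineage against WT and in WTMM against WTPP. Points are estimates, lines are 95% intervals, and filled points have an adjusted p at or under 0.05: Tfrc, Trf and Smad7 against WT in both lineages, and Hamp2 between lineages. The Hamp2 intervals are the widest of the 10 in every panel.

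Per kilobase of exon, the measure used here wherever levels of different genes are compared, Hamp was highest at 110982 ± 30766 normalized counts per kb (SD, n = 12 libraries), and stood 17 of 14473 among all tested genes. Ftl1 followed at 42386 ± 2968, and then Fth1 at 9908 ± 913, Trf at 8264 ± 1721 and Hamp2 at 7825 ± 7989.7 per kb. The other 5 were Tfr2 at 2649 ± 326, Slc40a1 at 1161 ± 133, Tfrc at 143 ± 76.5, Smad7 at 129 ± 57.9 and Bmp6 at 57.7 ± 12.2 per kb. The libraries of Hamp and Ftl1 did not overlap, nor did those of Ftl1 and Fth1, of Tfr2 and Slc40a1, or of Slc40a1 and Tfrc. The ranges of the other neighbours in this order overlapped, and Hamp2 reached into those of Fth1, Trf, Tfr2 and Slc40a1. Between its lowest and highest library Hamp2 differed 59.9-fold, against 4.07-fold for Tfrc, 3.67-fold for Smad7, 3.41-fold for Hamp and 1.29-fold for Ftl1.

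Hamp (ENSMUSG00000050440.8) lies on chromosome 7 from 30942368 to 30944032 on the minus strand of GRCm38, and its copy Hamp2 (ENSMUSG00000056978.8), of which mouse liver and pancreas are known sites of expression, lies beside it from 30922372 to 30924681 on the same strand. The 2 transcripts were identical in 94.6% of 410 aligned bases, and 16.6% of the 50-base words of Hamp also occur in Hamp2, so reads could be split between them and both levels are uncertain to that extent. Their upstream windows are shown because that of Hamp holds the BMP-responsive element and the STAT site through which the gene is known to be controlled, and that of its copy can be read against it. The sequences are the 250 bases before the start site in RefSeq (GRCm38.p6), chr7:30944030-30944279 for Hamp and chr7:30924182-30924431 for Hamp2, both minus strand, with GGCGCC (the BMP-responsive letters) and TTCNNNGAA (the STAT letters) in capitals.
Hamp: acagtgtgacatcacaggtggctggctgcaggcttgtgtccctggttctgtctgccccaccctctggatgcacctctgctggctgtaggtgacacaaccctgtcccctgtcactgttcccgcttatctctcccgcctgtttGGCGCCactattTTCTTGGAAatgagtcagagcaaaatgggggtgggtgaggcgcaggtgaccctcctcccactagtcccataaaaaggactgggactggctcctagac
Hamp2: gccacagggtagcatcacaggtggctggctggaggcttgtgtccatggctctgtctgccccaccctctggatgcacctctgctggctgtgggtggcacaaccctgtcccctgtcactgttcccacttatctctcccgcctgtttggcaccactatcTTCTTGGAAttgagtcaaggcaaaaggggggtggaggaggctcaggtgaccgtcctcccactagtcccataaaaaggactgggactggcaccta
Hamp held GGCGCC with its first base 109 bases before the start and TTCTTGGAA 97 bases before it. Hamp2 held TTCTTGGAA 94 bases before its start and GGCACC where Hamp has GGCGCC, which is the substitution G145A with positions counted from 1 at the 5′ end of the Hamp window. The Hamp2 window lies wholly inside the gene span given above, which is that of GENCODE. Its place upstream therefore holds for the RefSeq start only. The windows were identical in 92.9% of the 297 bases aligned, which run on past the start site. Among 32851 upstream windows of 250 bases, searched on both strands, 9.59% held GGCGCC and 7.02% held TTCNNNGAA. Windows of 5 further genes were read (Tfrc, Tfr2, Fth1, Ftl1 and Bmp6), of which Tfrc held GGCGCC 89 bases before the first of its 2 listed starts.

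Hamp had 41268, 52213, 22484 and 41220.1 normalized counts in WTMM 6, 7, 8 and 9. The WTPP libraries 2, 3, 6 and 7 had 48445, 41121, 41719.6 and 47805, and WT 116, 117, 118 and 120 had 47181, 76590.2, 35584 and 50404. WTMM 8 was the lowest library and WT 117 the highest, and the 3 groups overlapped. Hamp averaged 39296 ± 12344 in WTMM and 44773 ± 3887 in WTPP, against 52439.8 ± 17312 in WT (SD, n = 4 each). The log2 difference from WT was -0.42 ± 0.25 (SE, adjusted p = 0.287) in WTMM and -0.18 ± 0.25 (adjusted p = 0.698) in WTPP, and WTMM against WTPP gave -0.25 ± 0.25 (adjusted p = 0.656). The 95% interval of WTMM against WT ran from -0.96 to 0.11, which includes a fall to 0.516 of the WT level.

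Hamp2 varied far more. It had 1345, 846, 4725 and 253 normalized counts in WTMM 6, 7, 8 and 9, while WTPP 2, 3, 6 and 7 had 4652, 10149, 8303 and 15172. In WT 116, 117, 118 and 120 it had 1254, 5964, 602 and 1475. Thus 3 of 4 WTPP libraries lay above every other library, WTPP 2 lay under WTMM 8 and WT 117, and WTMM 8 and WT 117 each stood well above the rest of their group. Hamp2 averaged 1792 ± 2005 in WTMM and 9569 ± 4378 in WTPP (SD, n = 4 each), and was lower in WTMM by a log2 difference of -3.02 ± 0.77 (SE, 8.12-fold, adjusted p = 0.0440). Against the WT mean of 2324 ± 2455, WTMM differed by -0.57 ± 0.77 (adjusted p = 0.671) and WTPP by 2.45 ± 0.77 (95% interval 0.79 to 4.11, adjusted p = 0.0603), and neither passed.

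The difference in Hamp2 between lineages lost its call in 13 of 25 alternative analyses, among them those without WTMM 6, 7 or 9, WTPP 3, 6 or 7 or WT 116 or 120, where the adjusted p ran from 0.0578 without WT 116 to 0.123 without WTMM 9. The log2 difference was -2.33 without WTMM 9 and -3.73 without WTMM 8. WTPP against WT gained a call without WTMM 8, WTMM 9 or WT 117 (adjusted p = 0.0349, 0.0345 and 0.0184), where the log2 difference without WT 117 was 3.08. Per kb, Hamp2 stood at 0.00432 to 0.148 of Hamp in WTMM, 0.0675 to 0.223 in WTPP and 0.0119 to 0.0548 in WT. Pancreatic acinar markers, 11 genes, summed to 1330.2 to 1736 normalized counts in WTMM and 483 to 1250.5 in WTPP, against 1219 to 3625 in WT, and 4 of them were at 0 in all WTMM libraries (Cpb1, Pnlip, Clps and Cel) and 4 in all WTPP libraries (Cpb1, Ctrb1, Clps and Amy2a5). Of the 9 tested acinar genes 7 were lower than in WT in each lineage, with a median log2 difference of -5.13 in both. The sum fell far less, with means of 1568 in WTMM and 935 in WTPP, against 2073 in WT. It therefore does not follow most of these genes. Between the lineages 0 of the 9 were called, with a median of 0.00. A pancreatic part of the Hamp2 levels was not tested.

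**Figure D3:**
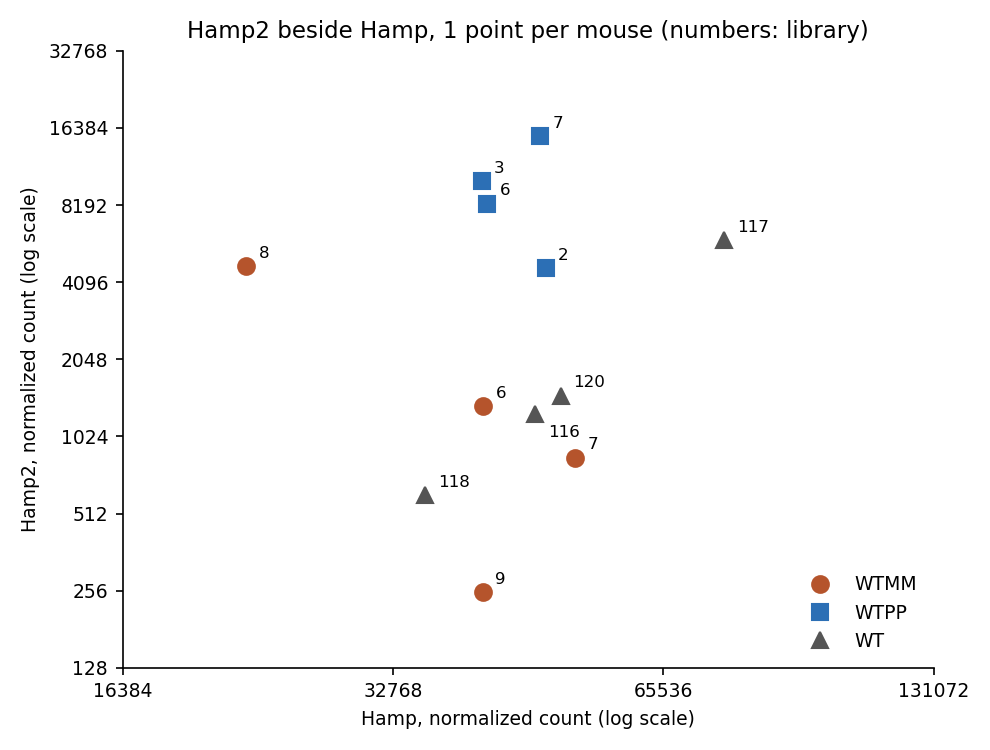
Hamp2 (y axis) against Hamp (x axis) as normalized counts on log scales, with 1 point per mouse labelled by library number and marked by group. WTPP 3, 6 and 7 lie highest in Hamp2, WTMM 8 joins a high Hamp2 to the lowest Hamp, and WT 117 is the highest in Hamp. Over the 12 libraries Pearson r of log2(normalized count + 1) was 0.07.

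Smad7 (ENSMUSG00000025880.11, chromosome 18), the inhibitory SMAD that dampens BMP signalling and hepcidin transcription, was higher in both lineages. It had 526, 615, 413 and 763 normalized counts in WTMM 6, 7, 8 and 9, while WTPP 2, 3, 6 and 7 had 674, 707, 982 and 1054. WT 116, 117, 118 and 120 had 287, 313, 302 and 376, and every library of both lineages lay above all 4. The log2 difference from WT was 0.83 ± 0.19 in WTMM (SE, 1.78-fold, 95% interval 1.35 to 2.34, adjusted p = 0.0145) and 1.396 ± 0.19 in WTPP (2.63-fold, 1.996 to 3.47, adjusted p = 0.000930). Of the 10 genes 3 had libraries apart from WT in each lineage (Tfrc, Trf and Smad7), and of all tested genes 18.8% did in WTMM and 15.1% in WTPP. WTMM against WTPP gave -0.57 ± 0.19 (adjusted p = 0.110) with overlapping libraries, so a difference between lineages was not shown. Both calls against WT stood in all 23 alternatives of each, with adjusted p up to 0.0447 for WTMM and 0.00504 for WTPP.

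Bmp6 (ENSMUSG00000039004.6, chromosome 13, 38345107 to 38500302, plus strand), the ligand, had 190.3, 185, 156 and 260.2 normalized counts in WTMM 6, 7, 8 and 9. The WTPP libraries 2, 3, 6 and 7 had 251, 324, 256 and 232, and WT 116, 117, 118 and 120 had 182, 239, 178 and 247. The groups overlapped in every comparison, and WTPP 3 was the highest library. The log2 difference was -0.10 ± 0.17 in WTMM against WT (adjusted p = 0.731), 0.33 ± 0.17 in WTPP against WT (0.226) and -0.44 ± 0.17 in WTMM against WTPP (0.175). Bmp6 shares 5.74% of its exon bases with Txndc5 on the opposite strand, which averaged 6996 reads per library. Since it is not given whether the counting used strand, the level of Bmp6 is uncertain. Sinusoidal endothelial markers, 11 genes that mark the cells known to make BMP6, summed to 16319.6 to 18078 in WTMM, 17346 to 17823 in WTPP and 18296 to 21347 in WT. Every lineage sum lay under all WT sums, and 10 of 11 genes had a negative log2 difference in each lineage. In each lineage 1 of 11 was called lower (9.09%), beside 5.94% of all tested genes in WTMM and 5.53% in WTPP. The part of this shift in the Bmp6 level was not tested. Per kb, Smad7 stood at 2.29 to 2.87 times Bmp6 in WTMM and 1.88 to 3.92 times in WTPP, against 1.13 to 1.47 times in WT.

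Of 21 other tested genes of the BMP and SMAD arm, 0 were higher and 1 lower in WTMM, and 0 higher and 1 lower in WTPP, against WT, which is 4.76% in each beside 10.4% and 10.2% of all tested genes. Hfe, which encodes a partner of the transferrin receptors, was lower in WTMM (log2 difference -0.31 ± 0.09, adjusted p = 0.0447), and Fgl1, a liver-secreted protein that blocks BMP ligands, was lower in WTPP (-1.02 ± 0.27, adjusted p = 0.0312). Both were near the threshold: Hfe lost its call in 13 of 23 alternatives, among them those without WTMM 6, 7 or 9, WTPP 2, 3 or 6 or any WT library (adjusted p up to 0.124), and Fgl1 in 6 of 23, among them those without WTPP 3, 6 or 7 or WT 116 or 118 (up to 0.0952). Between the lineages, 2 of 21 (9.52%) were lower in WTMM and 0 higher, beside 4.17% of all tested genes.

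One of these was Hjv, which encodes the BMP co-receptor hemojuvelin. It had 993, 1085, 1112 and 629 normalized counts in WTMM 6, 7, 8 and 9, against 2814, 2742, 1701 and 1510.0 in WTPP 2, 3, 6 and 7. The lineages did not overlap, as was so for 13.2% of all tested genes, and the log2 difference was -1.18 ± 0.22 (adjusted p = 0.00914). WT livers, at 1127 to 1477, lay between, and neither lineage passed against them (adjusted p = 0.154 for WTMM and 0.0594 for WTPP). The Hjv call between lineages held without any 1 library, while WTPP against WT gained a call without WTMM 9 or WTPP 7 (adjusted p = 0.0365 and 0.0340). The other was Id2, a SMAD target, lower in WTMM by -0.74 ± 0.19 (adjusted p = 0.0436), a call lost in 16 of 25 alternatives, among them those without WTMM 6, 7 or 8, WTPP 3, 6 or 7 or WT 116, 118 or 120 (up to 0.102). In WTPP against WT Id2 was not called (0.52 ± 0.19, adjusted p = 0.0977) except without WTMM 8 (0.0369) and with only these groups compared (0.0390).

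Id1, Smad6 and Atoh8, further targets of BMP signalling that rise with Hamp in iron-loaded mice, were not called against WT in the fit of all libraries. Id1 had a log2 difference of -0.11 ± 0.34 in WTMM (adjusted p = 0.872) and 0.88 ± 0.34 in WTPP (0.118) against WT, and passed in WTPP with only these groups compared (0.0393). Smad6 gave -0.01 ± 0.16 in WTMM (0.965) and 0.35 ± 0.16 in WTPP (0.196), and Atoh8 gave 0.13 ± 0.24 in WTMM (0.764) and 0.49 ± 0.24 in WTPP (0.201). The Atoh8 difference in WTPP passed without WT 117 (adjusted p = 0.0285). Tmprss6, the protease that cleaves hemojuvelin, differed by 0.07 ± 0.12 in WTMM (0.751) and -0.01 ± 0.12 in WTPP (0.978).

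Trf (ENSMUSG00000032554.15, chromosome 9, 103204001 to 103230444, minus strand) was lower in both lineages. It shares 63.5% of its exon bases with Gm20425 on the same strand, which was counted at a mean of 0.667 reads per library; a counter may drop or split reads there, so its level per kb and its place in the order are uncertain. It had 24933, 27287, 26207 and 22016 normalized counts in WTMM 6, 7, 8 and 9, while WTPP 2, 3, 6 and 7 had 25681, 23494, 20805 and 22102. WT 116, 117, 118 and 120 had 37951, 37378, 30472 and 30924, and all 8 lineage libraries lay under the lowest of them. Trf averaged 25111 ± 2277 in WTMM and 23021 ± 2086 in WTPP, against 34181 ± 4033 in WT (SD, n = 4 each). The log2 difference was -0.44 ± 0.11 in WTMM (0.736 of the WT level, adjusted p = 0.0250) and -0.57 ± 0.11 in WTPP (0.675 of the WT level, adjusted p = 0.00809), and 0.13 ± 0.11 between WTMM and WTPP (adjusted p = 0.614). The WTMM call was lost in 4 of 23 alternatives, among them those without WTMM 6, WTMM 9 or WT 116 (adjusted p = 0.0599, 0.0736 and 0.0725), and the WTPP call stood in all 23. The 7 hepatocyte markers summed to 2704875 to 3153095 in WTMM and 3291428 to 3699050.4 in WTPP, against 2962989.7 to 4264168 in WT. These sums overlapped in both comparisons with WT. Of the 7, 1 was called higher and 1 lower in WTMM (28.6%, beside 10.4% of all tested genes). In WTPP 0 were called higher and 1 lower (14.3%, beside 10.2%). Log2 differences ran from -0.52 to 0.88 in WTMM and from -0.39 to 0.58 in WTPP. The part of these shifts in the Trf result was not tested.

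The iron-responsive elements are shown because they mark the genes whose translation (Fth1, Ftl1, Slc40a1) or transcript stability (Tfrc) iron is known to control. A match was a C, then 5 bases, the loop CAGTGN and 5 bases that pair with the first 5, with G to U pairs allowed, searched on the transcript strand of GENCODE M21. Each line has 28 bases with the loop in capitals, from the 5′ untranslated region of Fth1, Ftl1 and Slc40a1 and the 3′ untranslated region of Tfrc.
Fth1: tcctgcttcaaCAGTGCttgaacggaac
Ftl1: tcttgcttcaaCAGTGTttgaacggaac
Slc40a1: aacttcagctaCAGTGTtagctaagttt
Tfrc site 1: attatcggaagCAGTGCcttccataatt
Tfrc site 2: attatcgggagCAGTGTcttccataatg
Tfrc site 3: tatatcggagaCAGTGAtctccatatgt
Tfrc site 4: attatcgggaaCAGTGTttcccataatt
A match was found in 0.102% of 20594 5′ untranslated regions and in 0.512% of 21683 3′ untranslated regions. No match was found in Tfr2, Trf, Hamp or Hamp2.

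Tfrc (ENSMUSG00000022797.15, chromosome 16, 32608920 to 32632794, plus strand) was the most lowered of the 10 genes against WT in both lineages. It had 584, 539, 680.0 and 646 normalized counts in WTMM 6, 7, 8 and 9, while WTPP 2, 3, 6 and 7 had 525, 729, 723 and 424. WT 116, 117, 118 and 120 had 1727, 819.5, 1713 and 1488. No lineage library reached the lowest WT library, WT 117, which itself lay far under the other 3. The log2 difference was -1.17 ± 0.22 in WTMM (SE, 0.443 of the WT level, 95% interval 0.317 to 0.619, adjusted p = 0.00666) and -1.23 ± 0.22 in WTPP (0.425, 0.304 to 0.594, adjusted p = 0.00575). WTMM against WTPP gave 0.06 ± 0.22 (adjusted p = 0.924), an interval of -0.42 to 0.54. Both calls against WT stood in all 23 alternatives, with adjusted p up to 0.0257 and 0.0214.

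Kupffer cell and macrophage markers were lower in the lineages, as Tfrc was. The part of these markers or of erythroid markers in the Tfrc result was not tested. WT 117, lowest of the WT libraries in Tfrc, was also lowest of them in the Kupffer cell and macrophage sum at 21126, while WT 116, 118 and 120 had 45962, 31492 and 31637, and no lineage library passed 18688. Erythroid sums were also lower, with means of 4794 in WTMM and 6589 in WTPP, against 17603 in WT. The lineage libraries other than WTPP 2 had 815 to 8329, under every WT library. WTPP 2 had 17101, above WT 117 at 13689.8 and WT 118 at 9877, with a Tfrc count of 525. WT 118, lowest of the WT libraries in the erythroid sum, had a Tfrc count of 1713, above WT 117 at 819.5. In libraries that hold transcripts of several cell types, fewer cells of a type and less RNA per cell cannot be told apart.

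**Figure D4:**
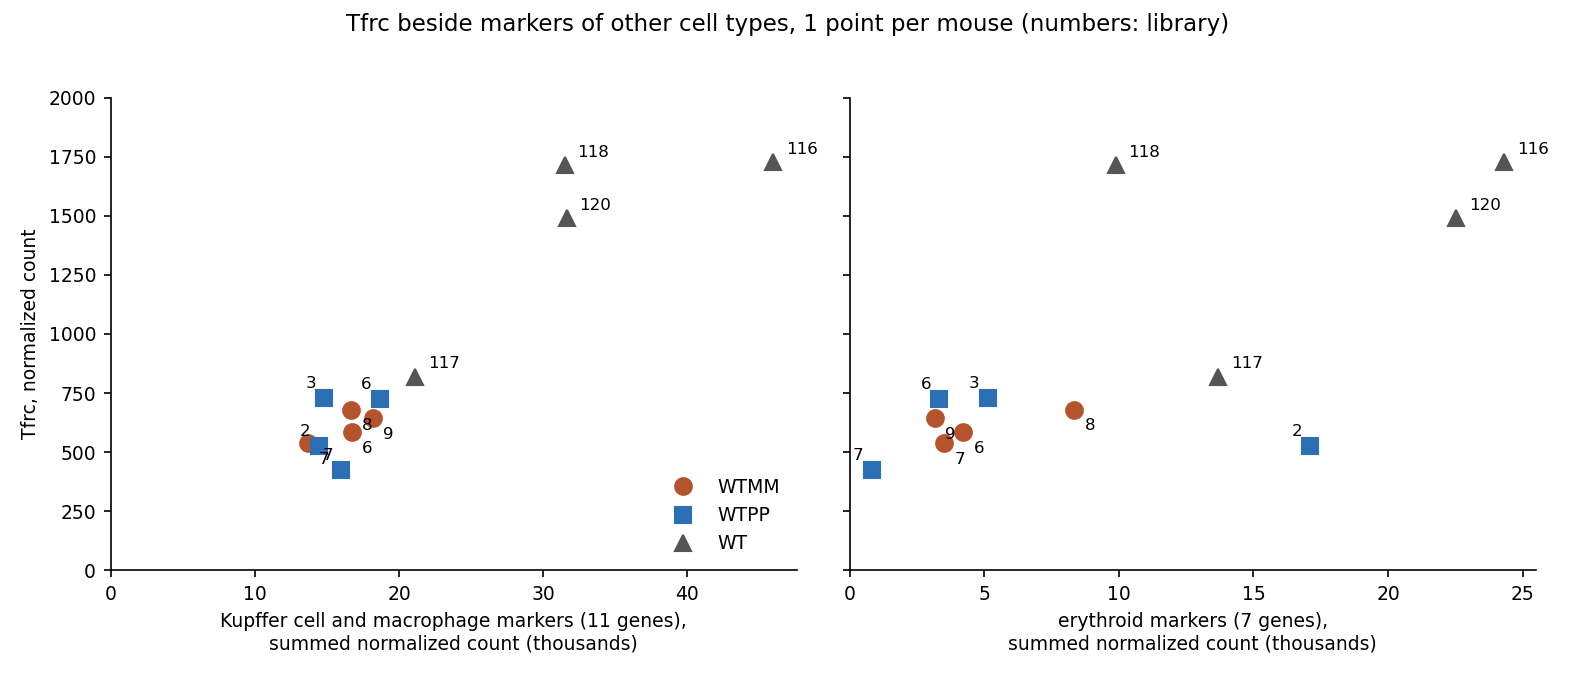
Tfrc normalized count (y axis) against the summed normalized count of 11 Kupffer cell and macrophage markers and of 7 erythroid markers (x axes), with 1 point per mouse labelled by library number and marked by group. On the left the lineage libraries lie together at up to 18688 on the x axis and 729 on the y axis, WT 117 lies next to them, and WT 116, 118 and 120 lie apart. On the right the lineage and WT libraries overlap on the x axis.

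Tfr2 (ENSMUSG00000029716.13, chromosome 5, 137569840 to 137587481, plus strand), the hepatocyte transferrin receptor that senses iron-laden transferrin, showed no such fall. It had 11062 to 13354 normalized counts in WTMM, 10284 to 11585 in WTPP and 9067 to 14437 in WT, and WT spanned both lineages. The log2 difference was 0.10 ± 0.12 in WTMM (adjusted p = 0.625) and -0.05 ± 0.12 in WTPP (0.832) against WT, and 0.15 ± 0.12 between WTMM and WTPP (0.555). The 95% intervals against WT, -0.16 to 0.36 and -0.31 to 0.21, do not reach the Tfrc estimates. Per kb, Tfr2 stood at 23.2 to 32.2 times Tfrc in WTMM and 20.8 to 37.6 times in WTPP, against 8.69 to 9.64 times in WT 116, 118 and 120 and 25.1 times in WT 117.

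Slc40a1 (ENSMUSG00000025993.10, chromosome 1, 45908068 to 45926523, minus strand), the only known cellular iron exporter, had 10863, 11200, 10368 and 11654 normalized counts in WTMM 6, 7, 8 and 9. WTPP 2, 3, 6 and 7 had 8100, 8830.4, 11088 and 12152, and WT 116, 117, 118 and 120 had 11131, 9414, 9804 and 10794. The WTPP libraries spread on both sides of the other groups. Log2 differences were 0.10 ± 0.12 in WTMM and -0.05 ± 0.12 in WTPP against WT and 0.15 ± 0.12 between WTMM and WTPP (adjusted p = 0.621, 0.827 and 0.547).

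The ferritin genes, whose products store iron, varied least of the 10 between their lowest and highest library, 1.44-fold for Fth1 and 1.29-fold for Ftl1. Fth1 (ENSMUSG00000024661.6, chromosome 19, 9980598 to 9985098, plus strand), the heavy chain, averaged 33045 ± 3283 normalized counts in WTMM and 34291 ± 1609 in WTPP, against 35779 ± 4293 in WT (SD, n = 4 each), with overlapping libraries. Ftl1 (ENSMUSG00000050708.16, chromosome 7, 45457944 to 45459884, minus strand), the light chain, averaged 55527 ± 1495 in WTMM and 56821 ± 704 in WTPP, against 58044 ± 7144 in WT, where WT 117 was highest for both chains at 41531 and 68155. Log2 differences from WT were -0.11 ± 0.11 in WTMM and -0.05 ± 0.11 in WTPP for Fth1 (adjusted p = 0.545 and 0.794), and -0.06 ± 0.11 in WTMM and -0.02 ± 0.11 in WTPP for Ftl1 (0.771 and 0.916). The 95% intervals of these 4 differences lay between -0.35 and 0.21, so that a change of ferritin transcripts as large as that of Tfrc lies outside them. Reads of Ftl1 could be shared with the processed copies Ftl1-ps1, identical in 99.6% of aligned bases, and Ftl1-ps2, identical in 97.8%, and its level is uncertain to that extent. Ferritin protein is not measured here.

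Over the 12 libraries the genes with the most similar pattern to each of the 10 were named by Pearson r of log2(normalized count + 1) among all tested genes, as a description of libraries that share their groups. For Tfrc they were Soat1 (r = 0.962), Bin2 (0.960) and Tubb6 (0.953), for Smad7 Mpdz (0.972), Cmtm8 (0.963) and Fbxl20 (0.950), for Trf Commd9 (0.940), Nol12 (0.939) and Pqbp1 (0.937), and for Hamp2 Aldh1a7 (0.927), Gckr (0.924) and Selenbp1 (0.924). Hamp was closest to Fv1 (0.866), Pfn4 (0.856) and Gm12397 (0.851), Tfr2 to Ncdn (0.941), Cpn1 (0.925) and Ptbp1 (0.915), and Slc40a1 to Ttll11 (0.939), Tpd52l2 (0.914) and Bhlhe41 (0.895). Closest to Fth1 were Anapc7 (0.893), Mrpl55 (0.872) and Gpm6a (0.871), to Ftl1 Aspscr1 (0.935), Naprt (0.934) and Etfb (0.921), and to Bmp6 0610009E02Rik (0.880), Midn (0.866) and Thrap3 (0.839). Among the 10 genes themselves, Trf and Smad7, both called against WT, ran opposite (r = -0.91), and with group means taken off r was -0.63. Other pairs were then stronger, among them Trf and Fth1 (0.78), Hamp2 and Fth1 (0.77) and Hamp and Tfrc (-0.70).

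The list of other iron genes held 92 symbols, older names included, of which 86 were in the table and 82 were tested. Of these, 1 was called higher and 8 lower in WTMM against WT, 2 higher and 8 lower in WTPP against WT, and 1 higher and 3 lower in WTMM against WTPP, with medians of -0.02, 0.00 and -0.03. The shares called, 10.98%, 12.2% and 4.88%, were near those of all tested genes (10.4%, 10.2% and 4.17%), so these counts are no result about iron genes as a whole. The 9 called in WTMM were 3 without WTMM 6, 5 without WTMM 7 or WTPP 3 and 4 without WT 116 or WT 118, the 10 in WTPP were 6 without WTPP 6 or WT 118 and 5 without WT 116, and the 4 between lineages were 2 without WTMM 7, WTMM 8, WTPP 6 or WTPP 7 and 1 without WTPP 3. In the list of heme and hemoglobin scavenging, 4 of 12 were lower and 0 higher in WTMM, and 5 lower and 1 higher in WTPP, against WT. Of all tested genes 5.94% were lower in WTMM and 5.53% in WTPP, and the medians of the list were -0.14 in WTMM and -0.18 in WTPP.

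Hpx encodes hemopexin, the plasma carrier of free heme. It had 85424, 84960.3, 72838 and 94084 normalized counts in WTMM 6, 7, 8 and 9, while WTPP 2, 3, 6 and 7 had 75799, 86521, 77375 and 77058, against 240064, 132697, 156905 and 149243 in WT 116, 117, 118 and 120. No library overlapped with WT, and the log2 difference was -0.98 ± 0.17 in WTMM (adjusted p = 0.00486) and -1.06 ± 0.17 in WTPP (0.00306). Hp, which encodes the hemoglobin binder haptoglobin, was lower by a log2 difference of -0.94 ± 0.22 in WTMM (0.0196) and -0.96 ± 0.22 in WTPP (0.0167). The Hp call in WTMM was lost without WTMM 6, WTMM 8 or WT 116 (adjusted p = 0.0508, 0.0529 and 0.0555), and that in WTPP without WT 116 (0.0529). Both proteins are also acute-phase products of the liver, and 13 other acute-phase genes summed to 408212 to 544224 in WTMM and 372224 to 581009 in WTPP, against 426002 to 655132 in WT. Of these 13, 12 had a negative log2 difference in WTMM (median -0.41) and 13 in WTPP (median -0.57), with 5 and 6 called lower. Their sums overlapped between each lineage and WT, while Hpx did not overlap. The part of acute-phase genes in the Hpx and Hp results was not tested.

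Hmox1, the enzyme that opens heme and frees its iron, had 877, 627, 1443 and 864 normalized counts in the WTMM livers, 735, 695, 911 and 925 in the WTPP livers, against 2440.5, 1568, 1784 and 1790.4 in WT. Its log2 difference from WT was -1.04 ± 0.21 in WTMM (adjusted p = 0.00865) and -1.21 ± 0.21 in WTPP (0.00435), with no overlap. Cd163, the macrophage receptor for hemoglobin bound to haptoglobin, was lower than in WT by -0.84 ± 0.25 in WTMM (0.0447) and -1.77 ± 0.25 in WTPP (0.00144). The WTMM call of Cd163 was lost in 10 of 23 alternatives, among them those without WTMM 6 or 7, WTPP 2 or 3 or WT 116, 118 or 120 (adjusted p up to 0.126). Flvcr2, a heme importer or choline transporter depending on the cell, was higher in WTPP than in WT (0.51 ± 0.14, adjusted p = 0.0340) and lower in WTMM than in WTPP (-0.61 ± 0.14, 0.0265). The first was lost without WTPP 2, 3 or 6 or WT 116, 118 or 120 (up to 0.0952), and the second without WTMM 7, 8 or 9 or WTPP 2, 3 or 6 (up to 0.0884). The fifth lowered gene in WTPP was Flvcr1, described as a heme exporter (-0.57 ± 0.17, adjusted p = 0.0432), named after its values were seen.

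Among 12 genes of iron import, export, reduction and oxidation, 2 were lower and 0 higher against WT in each lineage, 16.7% called beside 10.4% of all tested genes in WTMM and 10.2% in WTPP. Slc11a1, which moves iron out of macrophage phagosomes, had 222, 183, 191 and 231 normalized counts in the WTMM livers, 227, 239.8, 254 and 242 in the WTPP livers, against 702, 321, 477 and 459 in WT. Its log2 difference was -1.19 ± 0.18 in WTMM (adjusted p = 0.00220) and -0.97 ± 0.18 in WTPP (0.00623), and WT 117 was again the lowest WT library. Slc11a1 and Cd163 are genes of macrophages, whose markers were lower in the same livers as given above. The part of that shift in these genes and in Hmox1 was not tested. Lcn2, a binder of bacterial iron carriers, was lower by -2.26 ± 0.56 in WTMM (0.0233) and -3.08 ± 0.56 in WTPP (0.00589). The WTMM call of Lcn2 was lost without WTMM 6 or 8 or WT 116, 118 or 120 (adjusted p up to 0.0713). Neutrophils are also a source of Lcn2, and the 6 neutrophil markers summed to 97.7 to 135 in WTMM and 112 to 247 in WTPP, against 186 to 646 in WT, with 4 of 4 tested genes lower in WTMM and 0 in WTPP (3 at an unadjusted p under 0.05 by limma, and 0 called with voom weights). Steap2, a metalloreductase, was higher in WTMM than in WTPP (0.51 ± 0.11, 0.0256), a call lost without WTMM 6, 7 or 9 or WTPP 3, 6 or 7 (up to 0.0763). Cp, the plasma ferroxidase ceruloplasmin, differed by -0.23 ± 0.14 in WTMM (0.315) and -0.43 ± 0.14 in WTPP (0.0719), the second called without WTPP 2 or WT 117 (0.0371 and 0.0254). The importer Slc39a14 differed by -0.02 ± 0.15 in WTMM (0.957) and -0.39 ± 0.15 in WTPP (0.105).

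Of 7 genes for iron regulatory proteins, ferritin turnover and iron chaperones, Ireb2, which encodes iron regulatory protein 2, was the 1 gene called against WT (14.3%, beside 10.2% of all tested genes), higher in WTPP (0.45 ± 0.12, adjusted p = 0.0355). That call was lost without WTPP 6 or 7 or WT 116, 117 or 118 (up to 0.103), and in WTMM Ireb2 differed by 0.31 ± 0.12 (0.122). Aco1, which encodes iron regulatory protein 1, differed by 0.01 ± 0.10 in WTMM (0.946) and 0.09 ± 0.10 in WTPP (0.600), and Ncoa4, the receptor for ferritin breakdown, by -0.07 ± 0.09 in WTMM (0.648) and -0.14 ± 0.09 in WTPP (0.331).

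In the inflammatory arm of hepcidin control, 1 of 7 genes was lower in WTMM (14.3%, beside 10.4% of all tested genes) and 0 were called in WTPP, where 2 had an unadjusted p under 0.05 and 0 were called with voom weights. Stat3 was the gene called (-0.36 ± 0.11, adjusted p = 0.0494), and it lost its call in 15 of 23 alternatives, among them those without any 1 WTMM or WTPP library or WT 116 or 118 (up to 0.131). In WTPP Stat3 passed without WT 120 (adjusted p = 0.0421). Socs3, a STAT3 target, differed by -0.50 ± 0.37 in WTMM (0.412) and -0.68 ± 0.37 in WTPP (0.260), and the cytokine receptor gene Il6ra by -0.06 ± 0.16 in WTMM (0.838) and -0.39 ± 0.16 in WTPP (0.143), the last called without WT 117 (0.0418).

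Of 8 heme synthesis genes 0 were called in any comparison by limma, and Alas1, the first enzyme of that path, ranged over 9588 to 33483 normalized counts in WTMM, 2640.1 to 17218 in WTPP and 6908 to 15297 in WT. Alas1 averaged 22246 ± 10363 in WTMM, 9988 ± 6719 in WTPP and 11535 ± 3705 in WT (SD, n = 4 each). Log2 differences of the 8 ran from -0.25 to 0.87 in WTMM and -0.48 to 0.26 in WTPP against WT. Between WTMM and WTPP they ran from -0.20 to 1.35. At an unadjusted p under 0.05 there were 0, 1 and 1 of the 8 in the 3 comparisons, and 0 with voom weights. Of 15 genes of mitochondrial iron and iron-sulfur clusters, 1 was called in WTMM (6.67%, beside 10.4% of all tested genes): Lyrm4 was higher (0.43 ± 0.13, adjusted p = 0.0460). It lost its call in 13 of 23 alternatives, among them those without any 1 WTMM library, WTPP 2 or 3 or WT 117, 118 or 120 (up to 0.126). In WTPP all 15 had a positive log2 difference, 0.01 to 0.45 with a median of 0.18, but 0 were called (1 at an unadjusted p under 0.05, and 0 with voom weights).

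**Figure D5:**
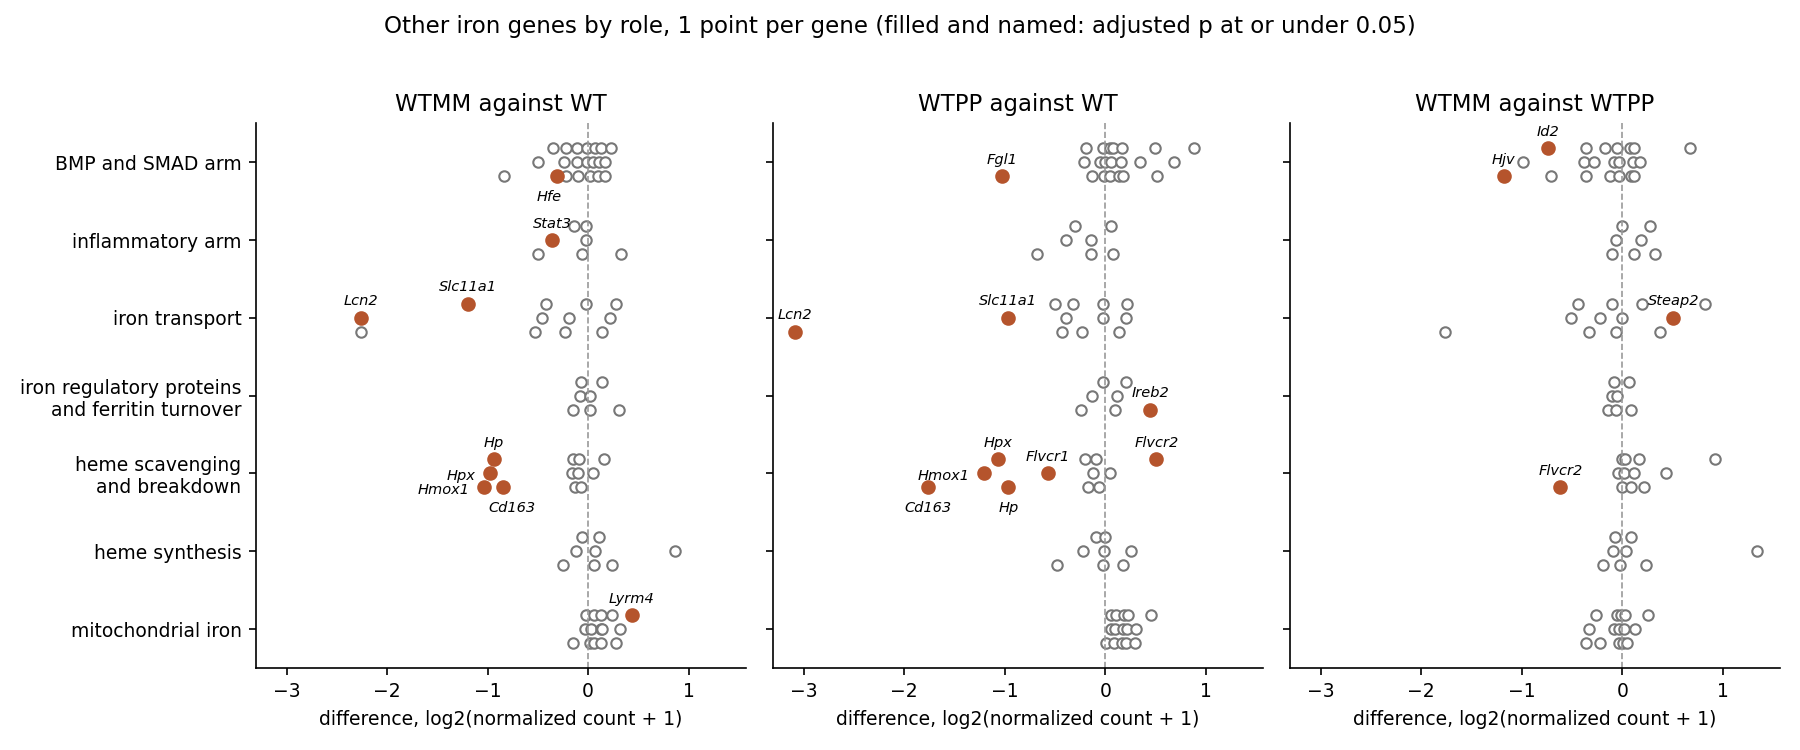
Log2 differences (x axis, log2(normalized count + 1)) of 82 other iron genes grouped by role (y axis), with 1 point per gene, in each lineage against WT and in WTMM against WTPP. Filled, named points have an adjusted p at or under 0.05. Against WT the lowered heme scavenging genes lie at -1.04 to -0.84 in WTMM and at -1.77 to -0.57 in WTPP, and heme synthesis has no filled point.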

How the data were processed

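Liver RNA of 12 mice was measured with 1 library each, made with a directional kit per the labels' protocols. The authors deposited log2 values, log2(normalized count + 0.1), for 25069 genes in 12 columns. The submitters' processing notes name GRCm38 with HISAT2, cutadapt and DESeq2, but no roles or versions, and no source used here gives the gene counter or its strand setting. After 0.1 was taken off the antilog, 100% of values were whole multiples of 1 step per library to within 0.001 of a read, which gave reads and library totals. That rests on the values, not on a label.

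All 3 groups entered 1 limma fit (3.58.1, R 4.3.3) on values recomputed as log2(normalized count + 1), with its trend option, and two-sided p-values were adjusted by Benjamini-Hochberg over the 14473 genes whose mean reached 10. This scale understates changes of low genes. The procedure was tested on simulated data. IDs were matched to GENCODE M21 for coordinates and exon lengths; promoter windows of 7 of the 10 genes were read from RefSeq. The 10 genes, the lists and the named genes were chosen with earlier results of these data known. Other iron genes named were up to 4 per list and comparison past the threshold with the smallest p, and a fixed set given whether called or not. Tried as alternatives were other pseudocounts, filters, scalings and models of the spread, fits of 2 groups only, each library left out and a replicate block.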

Additional observations from a re-analysis of the deposited data

Results flagged for a closer look

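The Hamp2 difference between the lineages passed in the direct test, with a log2 difference of -3.02 for WTMM against WTPP (adjusted p = 0.0440, limma), 1792 ± 2005 normalized counts in WTMM and 9569 ± 4378 in WTPP (SD, n = 4 each). The libraries of the lineages overlapped through WTMM 8 and WTPP 2. Hamp2 in WT 117 stood apart from the other 3 WT libraries on the scale of normalized counts: its 5964 lay above 1475, 1254 and 602 by a gap of 0.837 of the group's range, past Dixon's criterion at 95%. It was the 1 such case in 30 sets of 4 libraries of the 10 genes, and on the log2 scale there were 0. Chance passes this criterion in about 1 of 20 sets.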

How the results depend on the processing

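Of 710 values of the 10 genes under 25 alternatives, 688 stayed on their side of the threshold, 17 lost a call, 5 gained one and 0 changed direction while called; 25 with no call in either analysis changed sign. The 17 lost calls were 13 of Hamp2 between lineages and 4 of Trf in WTMM, and the 5 gained were Hamp2 in WTPP. Genes called over the whole table numbered 1502 in WTMM against WT, 2655 with array weights and 822 to 1795 when 1 library was left out. In WTPP against WT they numbered 1479, 858 with only the 2 groups compared and 742 to 1997 with 1 library left out. In WTMM against WTPP they numbered 603, and 266 to 824 with 1 library left out. Members called between lineages numbered 1, and 0 with no filter beyond 1 read, no mean-variance trend, robust moderation, voom weights on recovered reads or only the 2 groups compared (3 at an unadjusted p under 0.05 in each, limma), and 0 to 1 with 1 library left out. Other iron genes called in WTMM numbered 9, 5 with no filter, 14 with array weights and 3 to 10 with 1 library left out. In WTPP they numbered 10, and 5 to 14 with 1 library left out. Between lineages they numbered 4, 2 with only the 2 groups compared and 1 to 4 with 1 library left out. The cause of these changes was not tested.

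WTMM and WTPP share the library numbers 6 and 7, and the labels do not say that these pair the samples. Deviations of same-numbered libraries from their group means correlated at -0.15 and -0.07, and those of other pairs at -0.13 to 0.16. With so few libraries these values cannot show whether a pairing exists. With the replicate block on those 4 libraries 32 genes were called in WTMM against WTPP, and 38 in the same 4 libraries without the block. Other iron genes called were 0 in both (9 and 11 at an unadjusted p under 0.05, limma).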
